A study of Xenopus laevis with 6 samples.

Results

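Transcripts of the nuclear pore and of nuclear transport were followed in gastrulae of the frog Xenopus laevis in which the gene apcdd1 had been targeted on the dorsal side. The members are all probe sets of the array table whose single gene symbol names a nucleoporin (nup followed by a digit, or tpr), an importin or transportin (kpna, kpnb, ipo, tnpo), an exportin (xpo), a Ran-binding or Ran-cycle protein (ranbp, rangap, rcc1), an mRNA export receptor (nxf, nxt) or a lamin (lmn). The pattern takes 104 of 32634 probe sets, which stand for 70 of the 11302 genes named on the array when the L and S copies are counted apart. Xenopus laevis is allotetraploid, and L and S mark the homeologs of a gene, its copies on the longer and the shorter chromosome of a pair. A further 2 probe sets match the pattern but carry both homeologs' symbols (of kpna7 and of tnpo2) and are not counted as members.

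Both groups were injected at the 4-cell stage into each of the 2 dorsal blastomeres with 10 ng of a morpholino (MO), an antisense oligomer that stops an RNA from being translated or spliced. One group received an anti apcdd1 MO and is called depleted here, the other a control MO. All embryos grew at 16 degrees C to stage 10.5, early in gastrulation, and their dorsal sides were cut out and pooled in batches of 10 embryos, with 3 batches and 3 Affymetrix arrays per group. Depleted embryos alone were marked with a dye on the ventral side, because the dorsal lip formed late in some of them, so this handling and any delay cannot be told apart from the depletion. No injected strain or transgene is named in the labels, which also do not say whether the batches came from separate clutches, so a p-value sets a difference against the variation among pools only. The treatment text of the control samples names the apcdd1 MO, and the grouping follows their genotype label.

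The nuclear pore is a large ring-shaped channel through the nuclear envelope, built from nucleoporins that form a scaffold, a selective central channel lined by phenylalanine-glycine repeats, cytoplasmic filaments and a nuclear basket. Importins and exportins carry proteins through it, and the small GTPase Ran, loaded with GTP by Rcc1 at chromatin and made to hydrolyse it by RanGAP1 in the cytoplasm, gives the traffic its direction. Lamins are intermediate filament proteins that line the inner face of the envelope. Early frog embryos live on a maternal store of these parts, and embryos of Xenopus use forms that differ from those of later tissues, such as the oocyte lamin LIII, the product of lmnb3.

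The array checks were as follows. Median signals per array ran from 44.4 to 45.7, and arrays correlated across the 19484 tested probe sets with r from 0.987 to 0.995 within the control, from 0.993 to 0.996 within the depleted group and from 0.983 to 0.988 between groups. The probe set of apcdd1.L, which measures RNA and not the block by the MO, had a mean signal of 308 ± 7.55 (SD, n = 3) with the control MO and of 246 ± 15.5 with the apcdd1 MO (limma adjusted p = 0.027). Leaving out single arrays, its decrease passed only without control 3, with limma's adjusted p from 0.049 to 0.094. The 3' to 5' signal ratio of gapdh, a sign of RNA integrity, was at most 1.81 on control arrays and at least 1.82 on depleted arrays, so it differed between the same groups as every result here, and its part was not tested. Organizer genes such as gsc.S (1374 and 1150) and chrd.1.S (2267 and 1539) were bright in control and depleted arrays, and so were some ventral genes, such as ventx2.1.S (991 and 1370) and wnt8a.L (707 and 737). Among marker lists, 5 of 18 tested probe sets of the dorsal organizer were lower and 0 higher, 3 of 6 of the epidermis higher and 0 lower, 3 of 12 ventral ones higher and 1 lower, 2 of 14 endodermal ones lower and 0 higher, and 1 of 9 neural ones lower and 0 higher. By comparison, 6.62% of all tested probe sets were called. Of the epidermis calls, foxi1.L rose 13.3-fold, from a mean signal of 54.2 to 718 (limma adjusted p = 7.7e-08). The others, grhl3.L and grhl1.L, had log2 changes of 0.64 and 0.38. In the same list, grhl3.S and tfap2a.L overlapped between groups (-0.02 and 0.03). tfap2a.S was lower without overlap and did not pass (-0.23 ± 0.08 SE, limma adjusted p = 0.17). All probe sets of dlx3 and krt12.4 were left out as dim. The summed organizer signal was 19676 to 23224 in control and 17318 to 18258 in depleted arrays. Within the neural list, sox3.L and sox3.S overlapped between groups (both -0.01). Its call was on a probe set of sox2.L (-0.46), whose others did not pass (-0.24 and -0.03). The neural sum was 21096 to 21860 against 19754 to 20985. In the other direction, the ventral sum was 3859 to 4227 against 4601 to 4812. It holds the bright ventx2.1.S and ventx2.1.L (means of the L copy 1115 and 1379), and the median log2 change of the ventral list was -0.03. The epidermis sum, which holds foxi1.L, was 1350 to 1618 against 2095 to 2205. The endodermal sums overlapped. The part of tissue composition in the results below was not tested, and in such bulk pieces fewer cells of a type and less RNA per cell cannot be told apart.

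Of the 104 members, 90 were bright enough to be tested (86.5%, against 69.6% of all probe sets with 1 symbol). They cover 68 of the 70 genes. In the fit over all probe sets, 2 members were higher in depleted embryos, nup35.L and nup42.L, 2 were lower, kpna7.L and ranbp2.S, and 86 did not pass. Over all tested probe sets 3% were higher and 3.61% lower. The called members are 4.44% of those tested, against 6.62% of all tested probe sets, so the share called was not above the background. The median log2 change of the members was -0.01, that of all tested probe sets 0.00. No member differed by as much as 1.5-fold, and 82 of 90 changed by less than 0.25 on the log2 scale (91.1%, against 84.3% of all). Members and all tested probe sets were not matched for brightness.

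The intervals show how precisely each change was measured among these pools, 1 probe set at a time and without adjustment for their number. For 81 of the 90 tested members the 95% interval of the log2 change lay wholly between -0.5 and 0.5, and its median half-width was 0.19. The depleted arrays lay all above or all below the control arrays for 26 members, 12 above and 14 below (28.9%, against 24.7% of all tested probe sets). At an unadjusted p under 0.05 there were 19 members (21.1%, against 18.98% of all). The 2 lower calls were lost without control 2, without depleted 1 and without depleted 2, which left 2 called members each time. Of the 14 members left out as dim, 0 passed in limma when no filter was used, where 3.77% of all probe sets passed. None of them had an unadjusted p under 0.05, and no other tool was run. With array weights, a fit that lets arrays count unequally, 23 members passed, but so did 22.8% of all probe sets.

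**Figure D1:**
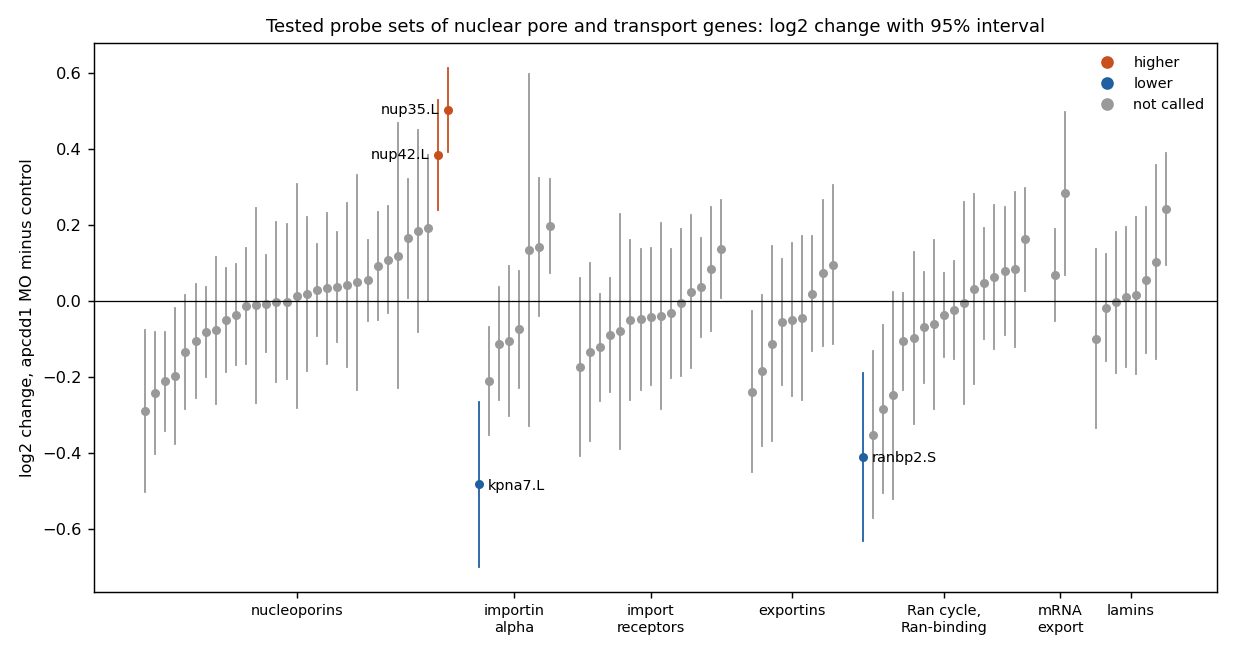
Log2 change (depleted minus control) of the 90 tested probe sets, one point each, sorted within 7 roles along the x axis, with vertical lines for the 95% interval. Orange and blue mark the 2 higher and 2 lower members, which lie outside the range from -0.35 to 0.28 that holds the other 86.

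Among nucleoporins, 31 probe sets of 24 genes were tested, and 2 rose, 0 fell and 29 did not pass, with a median log2 change of 0.01. The share called was 6.45%, against 6.62% of all tested probe sets. The member with the lowest p was nup35.L, a linker protein of the scaffold's inner ring, called Nup53 in frog studies. Its probe set, Xl2.4445.1.S1_at, read 1818, 1859 and 1797 on the control arrays and 2600, 2484 and 2672 on the depleted arrays. Each depleted array lay far above each control array. The mean rose 1.42-fold, from 1825 ± 31.4 to 2586 ± 94.9 (SD, n = 3), a log2 change of 0.50 ± 0.05 (SE, limma adjusted p = 3.4e-04). It passed under all 15 alternatives, with adjusted p up to 0.0044 in limma. The homeolog nup35.S, the brightest nucleoporin probe set, read 2200, 2402 and 2220 against 2318, 2245 and 2390. Its groups overlapped, and its log2 change of 0.03 ± 0.05 (SE) had an interval from -0.09 to 0.15.

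The other nucleoporin that rose was nup42.L, which sits at the cytoplasmic face of the pore and, as known from yeast and human cells, works with Gle1 in the last step of mRNA export. Its probe set, Xl2.47850.1.S1_at, read 337, 363 and 354 in control and 445, 461 and 470 in depleted embryos, with no overlap. It rose 1.31-fold, from 351 ± 13.2 to 459 ± 12.43 (SD, n = 3), with a log2 change of 0.38 ± 0.06 (SE, limma adjusted p = 0.0066). Leaving out single arrays gave adjusted p from 0.011 to 0.044 in limma. No S homeolog of nup42 carries a single symbol here.

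The 2 genes that rose have different places in the pore. In the inner ring, 1 of 5 probe sets rose and 0 fell, where 6.62% of all tested probe sets were called. nup155.L, a scaffold protein that touches the membrane, read 440, 495 and 471 in control and 413, 376 and 399 in depleted embryos. The groups did not overlap, and the log2 change of -0.24 ± 0.07 (SE) did not pass (limma adjusted p = 0.084). nup205.S, a large inner ring scaffold protein chosen here after its values were seen, went the same way (-0.29 ± 0.09 SE, limma adjusted p = 0.12), while nup93.L, its binding partner, also chosen so, was at 0.16 ± 0.07 (SE, limma adjusted p = 0.24). So the inner ring held values from -0.29 to 0.50.

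At the cytoplasmic face, nup42.L rose, and the 4 probe sets of nup88 and nup214 lay between -0.01 and 0.11. With ranbp2, the filament protein described below among Ran-binding proteins, 1 of 8 probe sets of this face rose and 1 fell. Their log2 changes ran from -0.41 to 0.38, and 6.62% of all tested probe sets were called. The Y complex, the outer scaffold ring named for its shape, was covered by nup107.S, nup160.L, nup85.L, nup37.L and nup43.S, of which 0 passed, with log2 changes from -0.11 to 0.09. Of the central channel proteins nup62, nup54 and nup58, 0 of 5 probe sets passed (-0.05 to 0.12), of the membrane protein nup210.L 0 of 2 (0.00 and 0.19) and of nup98l.S 0 of 2 (-0.01 and 0.02).

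The nuclear basket, which docks transport complexes on the nuclear side, gave 0 calls in 7 probe sets of nup153, nup50 and tpr. Of all tested probe sets, 6.62% were called. nup153.L, the basket's anchor, was measured by 4 of the 7 basket probe sets. The one with the lowest p read 1306, 1244 and 1314 in control and 1172, 1079 and 1086 in depleted embryos, without overlap. Its log2 change was -0.21 ± 0.06 (SE, limma adjusted p = 0.063), whereas the 3 other probe sets of nup153.L ran from -0.13 to 0.03. That probe set's name ends in _x_at, a suffix by which Affymetrix marks possible cross-hybridisation.

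**Figure D2:**
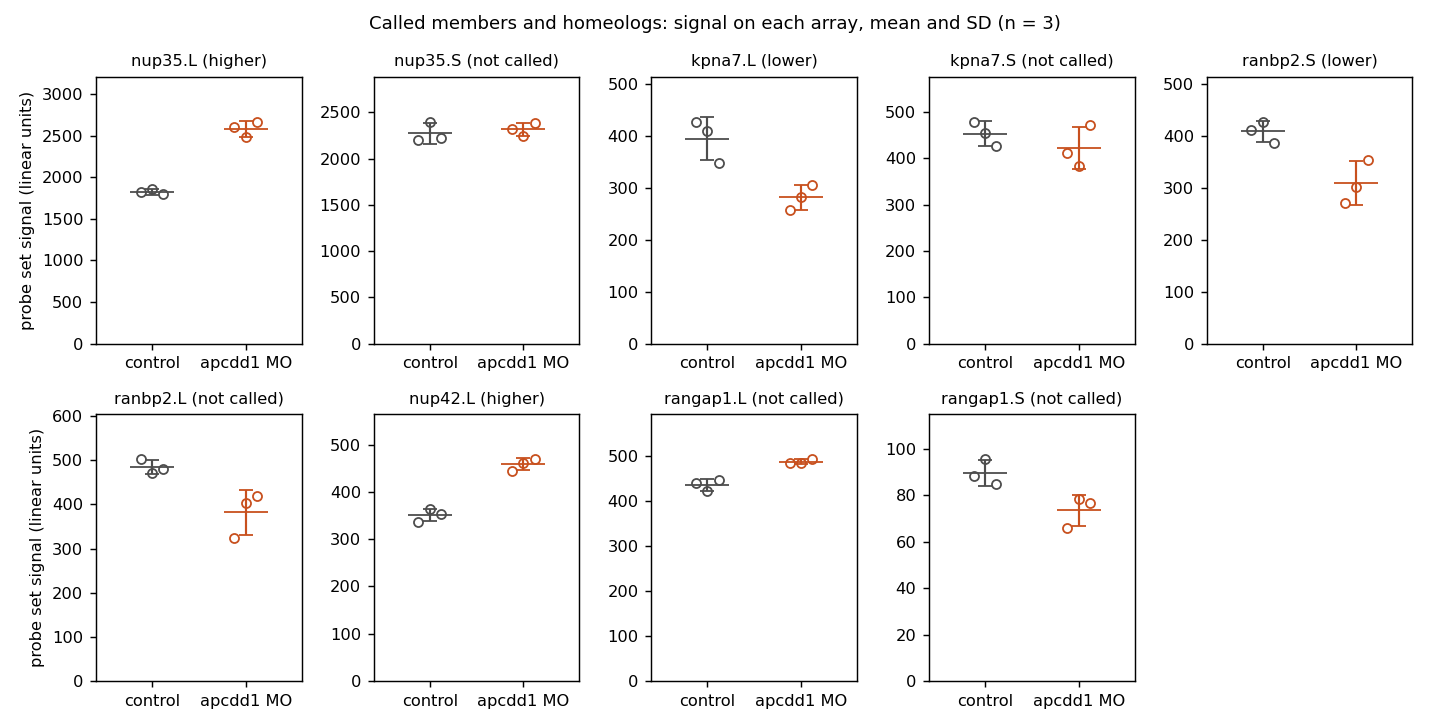
Signal of each array on a linear axis from 0 for the called members, their measured homeologs and both rangap1 homeologs, with control arrays in grey and depleted arrays in orange. Circles are arrays 1 to 3 from left to right, bars are means and whiskers the SD (n = 3). For nup35 the L copy separates (1797 to 1859 against 2484 to 2672) and the S copy overlaps.

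Importin alpha proteins, the kpna genes, are adaptors that bind the nuclear localisation signal of a cargo and link it to importin beta. Of 8 tested probe sets of 7 genes, 1 fell, 0 rose and 7 did not pass (12.5% called, against 6.62% of all tested probe sets). The member that fell was kpna7.L, the form known from mammals as specific to the oocyte and the early embryo. Its probe set, Xl2.276.1.S1_at, read 428, 409 and 348 on the control arrays and 258, 283 and 306 on the depleted arrays. The lowest control array stood above the highest depleted array. The mean was 1.40-fold lower, 282 ± 24.3 against 395 ± 42.0 (SD, n = 3), with a log2 change of -0.48 ± 0.10 (SE, limma adjusted p = 0.016). Without control 2, depleted 1 or depleted 2, limma's adjusted p was 0.088, 0.063 and 0.060, with log2 changes of -0.45, -0.42 and -0.49.

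The S homeolog of kpna7 was measured by an _x_at probe set, at 479, 454 and 426 in control and 412, 383 and 472 in depleted embryos. These groups overlapped (log2 change -0.11 ± 0.09 SE, limma adjusted p = 0.59). A probe set assigned to both homeologs read 816, 776 and 649 against 663, 633 and 718, also with overlap (-0.15 ± 0.09 SE, limma adjusted p = 0.43). The decrease was thus called on the L probe set alone. In the list of germ plasm and maternal markers, 4 of 11 tested probe sets were lower and 0 higher, where 6.62% of all tested probe sets were called. Their median log2 change was -0.36, and their summed signal was 6522 to 6638 in control and 4701 to 5914 in depleted arrays. The list was not uniform. Its calls were on grip2.L, dazl.L, wee2.L and wee2.S. Uncalled values ran from -0.72 for ddx25.L to 0.26 for mos.L, with velo1.L at -0.14 and zar1.S at -0.09. The part of these changes in the result for kpna7.L was not tested.

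For kpna2, counted here as an embryonic form from general knowledge of importin alpha and not from these data, values lay in the opposite direction. kpna2.L, the brightest importin alpha probe set, read 1330, 1399 and 1387 in control and 1566, 1511 and 1643 in depleted embryos. All depleted arrays were higher, by a log2 change of 0.20 ± 0.06 (SE), and this did not pass (limma adjusted p = 0.069). kpna2.S read 964, 901 and 836 against 1001, 903 and 1081, with overlap (0.14 ± 0.08 SE, limma adjusted p = 0.39). The intervals of the L copies, 0.07 to 0.32 for kpna2.L and -0.70 to -0.27 for kpna7.L, do not overlap. Those of the S copies do, at -0.04 to 0.32 for kpna2.S and -0.30 to 0.09 for kpna7.S. No test of a difference between these genes was made.

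Of the importin alpha forms of somatic tissues, 0 passed. kpna4.S read 1091, 1205 and 1230 in control and 982, 1046 and 1018 in depleted embryos, all lower, with a log2 change of -0.21 ± 0.06 (SE, limma adjusted p = 0.090). It passed without control 1 (limma adjusted p = 0.036, log2 change -0.26). kpna6.S overlapped between groups at 335 ± 16.4 and 318 ± 9.35 (SD, n = 3). The probe sets of kpna3.L differed from each other. One read 1058, 870 and 600 on the control arrays, a wide spread that holds all its depleted values (886, 853 and 963). The other read 600, 679 and 625 against 572, 586 and 601, with a log2 change of -0.11 ± 0.07 (SE).

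Lamins gave 0 calls in 8 tested probe sets of 6 genes, where 6.62% of all tested probe sets were called. Their median log2 change was 0.01. Of the oocyte lamin LIII, 0 of 3 probe sets passed. lmnb3.S read 142, 137 and 147 in control and 135, 154 and 139 in depleted embryos, and the groups overlapped. Its log2 change of 0.01 ± 0.08 (SE) had an interval from -0.17 to 0.19. The probe sets of lmnb3.L were at 0.10 ± 0.11 and 0.00 ± 0.08 (SE), with intervals from -0.15 to 0.36 and -0.19 to 0.18.

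Among somatic B-type lamins, lmnb1.S, the gene of lamin LI in the frog, lay highest. It read 1239, 1264 and 1128 in control and 1344, 1454 and 1495 in depleted embryos, without overlap, and its log2 change of 0.24 ± 0.07 (SE) did not pass (limma adjusted p = 0.064). lmnb1.L overlapped, at 1736 ± 149 and 1806 ± 183 (SD, n = 3). lmnb2, the gene of lamin LII, was at 0.01 ± 0.09 and -0.10 ± 0.11 (SE) on the L copy and at -0.02 ± 0.06 on the S copy. lmna.L, the A-type lamin gene known to come on later in frog development, was left out as dim, with signals from 11.8 to 15.3 on all 6 arrays. Set side by side, 1 of 7 tested probe sets of the embryonic forms (kpna2, kpna7 and lmnb3) fell and 0 of 9 of the somatic forms passed, where 6.62% of all tested probe sets were called, and the difference between the classes was not tested.

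**Figure D3:**
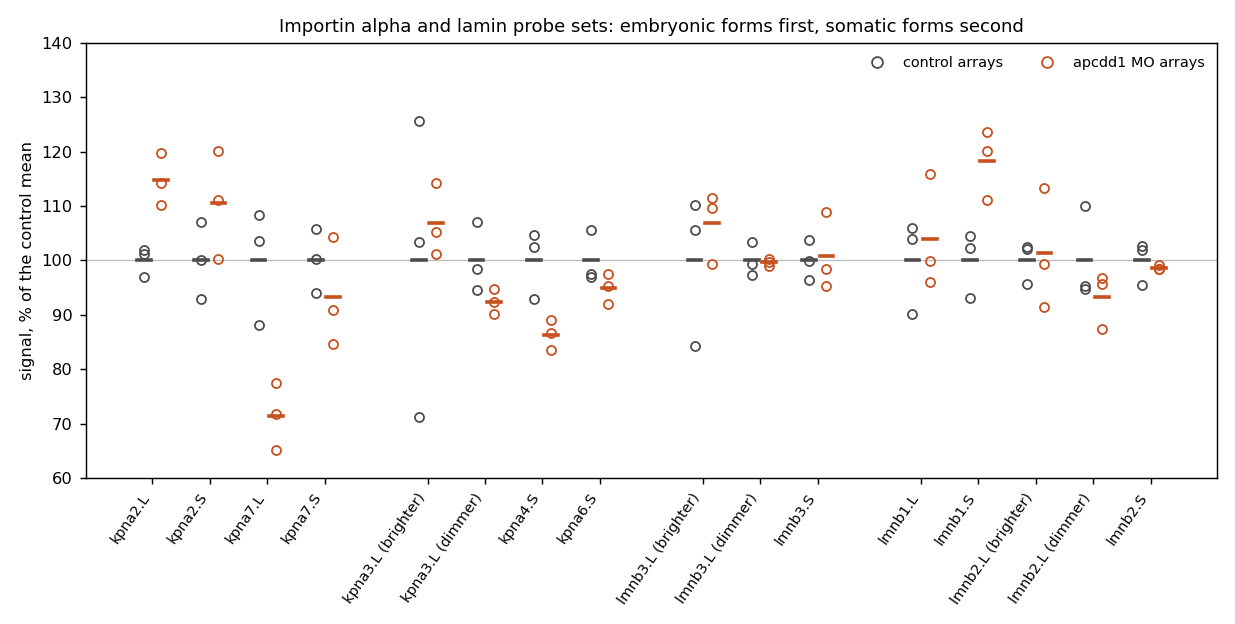
Signal of each array as a percentage of the control mean of its probe set (y axis from 60 to 140) for importin alpha and lamin probe sets, embryonic forms before somatic forms in each family, with bars for group means. kpna7.L is the probe set whose depleted arrays lie lowest, and the lmnb3 probe sets overlap throughout.

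Import receptors of the importin beta family gave 0 calls in 15 probe sets of 12 genes, where 6.62% of all tested probe sets were called. Their log2 changes ran from -0.17 to 0.14. ipo7.S, an importer of ribosomal proteins and other cargo, was the brightest. It read 1194, 1272 and 1296 in control and 1356, 1349 and 1430 in depleted embryos, all higher, and did not pass (0.14 ± 0.06 SE, limma adjusted p = 0.23). Another probe set of ipo7.S overlapped between groups (0.08 ± 0.07 SE, limma adjusted p = 0.61). ipo5.S, which also imports ribosomal proteins, read 577, 588 and 591 against 568, 525 and 520, all lower (-0.12 ± 0.06 SE, limma adjusted p = 0.34). kpnb1.S, importin beta itself, was chosen after its values were seen and overlapped, at 62.3 ± 6.96 and 56.6 ± 2.38 (SD, n = 3).

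Exportins gave 0 calls in 9 probe sets of 6 genes, where 6.62% of all tested probe sets were called. xpo7.S, a broad-specificity exportin, read 150, 150 and 175 in control and 142, 137 and 123 in depleted embryos. The depleted arrays were all lower, by a log2 change of -0.24 ± 0.09 (SE), and did not pass (limma adjusted p = 0.20). Its homeolog xpo7.L was at -0.18 ± 0.09 (SE, limma adjusted p = 0.30), on a probe set whose name ends in _s_at and which may bind both copies. Another probe set of xpo7.L, without that suffix, overlapped between groups (-0.11 ± 0.11 SE, limma adjusted p = 0.67). xpo6.L, the exporter of actin and the brightest of these probe sets, read 1308, 1507 and 1698 against 1586, 1566 and 1571, with overlap. The main exporter of proteins, xpo1.S, also named after its values were seen, overlapped on both probe sets (0.02 ± 0.07 and 0.09 ± 0.09 SE).

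The mRNA export receptor genes, nxf1 and nxt2, which form a heterodimer or belong to its family, gave 0 calls in 2 probe sets. Of all tested probe sets, 6.62% were called. nxf1.S read 117, 122 and 136 in control and 166, 138 and 153 in depleted embryos. All depleted arrays were higher, and the log2 change of 0.28 ± 0.10 (SE) did not pass (limma adjusted p = 0.13). nxt2.L overlapped, at 1655 ± 47.1 and 1735 ± 68.5 (SD, n = 3).

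In the Ran cycle and among Ran-binding proteins, 17 probe sets of 11 genes were tested, and 1 fell, 0 rose and 16 did not pass. This makes 5.88% called, against 6.62% of all tested probe sets. ranbp2, also known as Nup358, is the giant filament protein of the cytoplasmic face, which binds Ran and anchors RanGAP1 modified by SUMO. The called probe set of ranbp2.S, Xl2.44884.1.A1_at, read 411, 427 and 386 on the control arrays and 271, 301 and 354 on the depleted arrays, without overlap. The mean was 1.33-fold lower, 309 ± 42.0 against 408 ± 20.7 (SD, n = 3), with a log2 change of -0.41 ± 0.10 (SE, limma adjusted p = 0.037). This call passed when control 3 or depleted 3 was left out and was lost without any of the other 4 arrays, where limma's adjusted p ran from 0.077 without control 1 to 0.16 without control 2. It was also lost with a block by replicate number and with plain eBayes (limma adjusted p = 0.054 and 0.066).

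The other tested probe sets of ranbp2 went the same way by values that did not pass. ranbp2.L read 503, 470 and 480 in control and 323, 404 and 419 in depleted embryos, again without overlap (-0.35 ± 0.10 SE, limma adjusted p = 0.068). The dimmer probe set of ranbp2.S read 73.1, 85.8 and 69.7 against 66.1, 55.4 and 71.1, with overlap (-0.25 ± 0.12 SE, limma adjusted p = 0.31). Depleted array 1 was the lowest for the brighter probe sets of both copies. A further probe set of ranbp2.L was left out as dim and overlapped, at 19.6 ± 1.36 and 19.1 ± 0.60 (SD, n = 3).

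RanGAP1, which turns Ran back to its GDP form, was measured on both homeologs, and neither passed. rangap1.L read 439, 422 and 447 in control and 484, 485 and 493 in depleted embryos, all higher (0.16 ± 0.06 SE, limma adjusted p = 0.17). rangap1.S on its brighter probe set read 88.4, 95.7 and 84.7 against 66.0, 78.3 and 76.6, all lower (-0.29 ± 0.10 SE, limma adjusted p = 0.14), and on its dimmer one was at -0.10 ± 0.10 (SE). ranbp1.L, a helper of RanGAP1 and the brightest of this group, spread from 2092 to 2942 on the control arrays, which holds all 3 depleted arrays. rcc1, the exchange factor of Ran and likewise chosen after its values were seen, gave values from -0.11 to -0.02 on 3 probe sets. ranbp9.S and rcc1l.L match the symbol pattern but encode a scaffold protein and a mitochondrial protein rather than transport factors. Neither passed.

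The homeologs of a gene were set against each other in a fit of log2 L minus log2 S over all 1385 genes with both copies tested, each by its brightest probe set. Of 19 member genes with both copies, 3 differed in their change (15.8%, against 12.1% of all pairs) and 16 did not pass. In nup35, log2 L over S was -0.27, -0.37 and -0.31 on the control arrays and 0.17, 0.15 and 0.16 on the depleted arrays. The 2 groups did not overlap. Its sign has no meaning, since 2 probe sets do not share a scale, and only its change was tested. The difference in change was 0.47 ± 0.06 (SE, limma adjusted p = 0.0023), and it passed when any of the 6 arrays was left out.

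In kpna7, the L copy changed by -0.38 ± 0.08 relative to S (SE, interval from -0.56 to -0.19, limma adjusted p = 0.024). Because the S probe set is of the _x_at kind, the separation of these copies is uncertain, and without such probe sets no value for kpna7 could be had. In rangap1 the difference was 0.45 ± 0.10 (SE, interval from 0.22 to 0.68, limma adjusted p = 0.026), although neither copy passed alone. Its S copy was read by the brighter of 2 probe sets (-0.29 ± 0.10 SE), while the dimmer one was at -0.10 ± 0.10 with overlap. With the filter at the 60th percentile neither was tested, so no value for rangap1 could be had. Leaving out single arrays, the difference in kpna7 passed only without control 3 or depleted 2, with limma's adjusted p up to 0.095. That in rangap1 was lost without control 2, depleted 1 or depleted 3, with limma's adjusted p up to 0.10. The most negative of the uncalled differences were in nup50 (-0.25 ± 0.09 SE, limma adjusted p = 0.12) and ipo7 (-0.23 ± 0.08, 0.12). In ranbp2, whose copies went the same way, the difference was 0.06 ± 0.08 with an interval from -0.12 to 0.24.

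**Figure D4:**
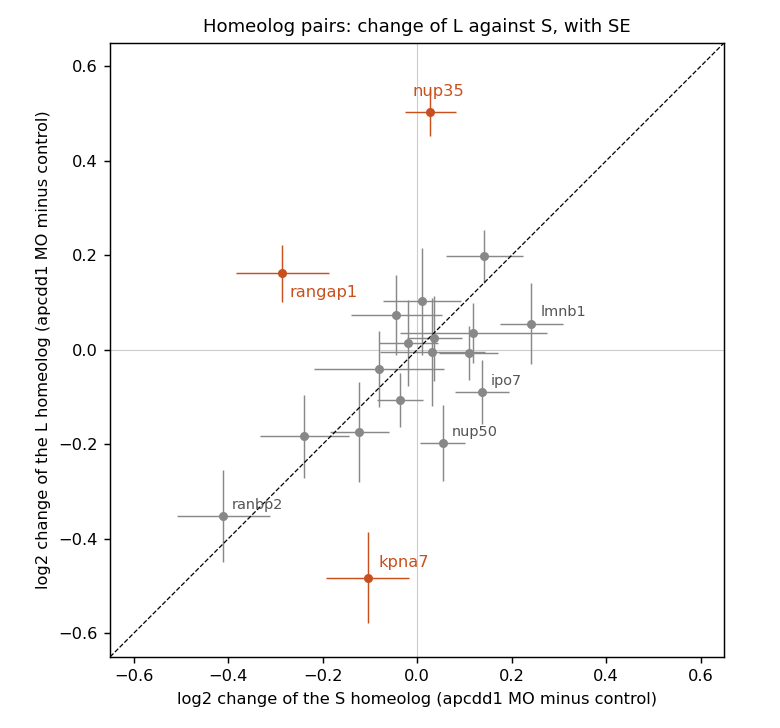
Log2 change (depleted minus control) of the L homeolog (y axis) against the S homeolog (x axis) for 19 member genes, with SE bars and a dashed line of equal change. nup35, kpna7 and rangap1 in orange lie off the line by 0.47, -0.38 and 0.45, while ranbp2 lies near it.

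Genes of the same processes outside the symbol pattern were read from a list of 49 further pore, transport and nuclear envelope genes, of which 36 were found by symbol. Of 64 tested probe sets, 5 rose and 0 fell (7.81%, against 6.62% of all tested probe sets), and the median log2 change was 0.05. ahctf1.L encodes ELYS, which brings the Y complex to chromatin when pores are built. It read 275, 276 and 266 in control and 386, 336 and 364 in depleted embryos, without overlap, and rose 1.33-fold (log2 change 0.41 ± 0.07 SE, limma adjusted p = 0.0092). ddx39b.L, an RNA helicase gene that loads mRNA export factors, rose 1.36-fold, from 212, 227 and 193 to 266, 295 and 296 (0.44 ± 0.08 SE, limma adjusted p = 0.012).

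The other calls of this list were on 1 of several probe sets. tmpo.L, which encodes LAP2, a lamin-binding membrane protein, rose 1.84-fold on a dim probe set, from 49.9, 64.9 and 48.8 to 86.6, 107 and 106 (limma adjusted p = 0.0038). With an offset of 64, which shrinks changes of dim probe sets, its log2 change was 0.47 in place of 0.88. Its brightest one overlapped, with a log2 change of 0.00 ± 0.08 (SE). nemp1.L, an inner nuclear membrane gene, rose on one probe set (0.28 ± 0.07 SE, limma adjusted p = 0.041), while its other one was at 0.03 ± 0.09. senp1.S, a SUMO protease gene, rose on 1 of 3 (0.35 ± 0.09 SE, limma adjusted p = 0.046), with the others at 0.03 and 0.10. Its homeolog senp1.L was higher without overlap and did not pass (0.34 ± 0.10 SE, limma adjusted p = 0.070). Of these calls, only that of tmpo.L passed whichever array was left out. ahctf1.L was lost without depleted 3 (limma adjusted p = 0.051), ddx39b.L without depleted 2 or depleted 3 (0.058 and 0.069), nemp1.L in every case but without control 1, and senp1.S in all 6 cases. The gene of Ran itself had a log2 change of -0.11 ± 0.06 (SE) and did not pass (limma adjusted p = 0.36).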

How the data were processed

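The values are signal intensities on a linear scale, one per probe set and array, as deposited by the authors. MAS5 is named for them, with no version, per the submitters' processing notes, and the scaling is not given in the sources used here. Detection calls and a genome were not used here, so no coordinates or sequences are given. Gene symbols come from the platform annotation, and all 104 members were found by gene number in the RefSeq table of assembly Xenopus_laevis_v10.1, with 0 symbols changed.

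After 160 control probe sets were set apart, the log2 of each signal was taken, and a probe set was tested only if its mean over the arrays reached the 40th percentile (4.48, a signal of 22.3). This removed 12990 of 32474. The test was limma 3.58.1 (R 4.3.3): lmFit followed by a trended, robust eBayes. P-values are two-sided and Benjamini-Hochberg adjusted over all 19484 probe sets, with calls under 0.05. Every fold change is a difference of mean log2 signal. Intervals are 95% intervals of that fit for single probe sets, not adjusted for the number of probe sets. An exact permutation test of 3 against 3 arrays cannot go below 0.1, and the number of arrays limits the precision. Probe set signals were not compared between genes as levels. The fit was tested on simulated data.

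The members and lists were chosen with earlier results of these data known. Named are all called members and their homeologs, and every importin alpha and lamin gene, by its tested probe sets where it had any. So are, in each role, the brightest member and the 2 of lowest p not yet named. Every called gene of the further pore and envelope list and apcdd1 are named too. Any other gene was named after its values were seen. Alternatives were quantile normalization, median centring, an offset of 16 or 64 before log2, no filter or one at the 60th percentile, plain eBayes (neither trended nor robust), array weights, a block by replicate number, and leaving out each array. The homeolog fit without probe sets ending in _s_at, _x_at or _a_at was chosen after seeing the data.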

Additional observations from a re-analysis of the deposited data

How the results depend on the processing

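The median change of the members moved by less than the spread between arrays under every alternative run, from -0.04 without control 1 to 0.01 without control 2. Their count of calls, 4, was 3 or 4 under the other alternatives apart from array weights (23, of which 19 were not among the 4) and apart from leaving out single arrays, which gave 2 to 4. All probe sets called went from 1289 to 4449 with array weights and to between 669 and 1430 without single arrays (669 without control 2, 739 without depleted 3). The 5 calls of the further pore and envelope genes became 11 with array weights, 3 without the filter, 3 with the filter at the 60th percentile, and 1 to 4 without single arrays (4 without control 1, 1 without depleted 3). At the 60th percentile the called probe sets of tmpo.L and senp1.S were not tested, and the other calls remained. Homeolog differences in 3 member genes became 5 with array weights and 1 to 3 without single arrays. They became 2 without probe sets that may bind both copies, where kpna7 had no value. With the filter at the 60th percentile, where rangap1 had no value, they also became 2. The share of all homeolog pairs called is given here for the main fit only (12.1%), so these counts have no background of their own. The cause of the other shifts in these counts was not tested. Same-numbered batches of the 2 groups had correlations of deviations of 0.05, 0.02 and -0.27, and differently numbered ones ran from -0.24 to 0.21. With 3 arrays per group, such correlations cannot settle whether the numbers pair the samples. With the replicate block, 3 members were called, all but ranbp2.S, with 1101 calls over all probe sets and 3 among the further genes. Plain eBayes likewise called 3 members, all but ranbp2.S, with 1126 calls over all probe sets.

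Some uncalled log2 changes of up to 0.13 in size turned sign. With array weights, these were lmnb1.L (-0.0498), nup35.S (-0.0305) and the dimmer rangap1.S probe set (0.0073). Without single arrays, lmnb1.L ran from -0.0254 to 0.11, lmnb2.L from -0.0691 to 0.0866, lmnb2.S from -0.0517 to 0.001, lmnb3.L from -0.0166 to 0.18 and on its other probe set from -0.0236 to 0.0206, lmnb3.S from -0.0463 to 0.0507, kpna3.L from -0.0929 to 0.32, ranbp1.L from -0.13 to 0.11 and xpo6.L from -0.0229 to 0.17.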

Other observations

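Within groups the members varied about as much as other probe sets on control arrays and less on depleted arrays. The median coefficient of variation of members was 6.29% over control arrays and 4.97% over depleted arrays, against 6.76% and 6.51% for all tested probe sets, and these differences were not tested. Members passed the brightness filter more often than other probe sets with 1 symbol (86.5%, against 69.6%). The sets were not matched for brightness, so neither this share nor the lower variation can be read as a trait of the members. A few bright members varied widely among the control batches alone. tpr.S, the basket filament gene, read 676, 734 and 513 on the control arrays and 717, 717 and 727 on the depleted arrays, so control 3 stands apart. xpo6.L had an SD of 195 in control and 10.3 in depleted arrays.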
